A study of Homo sapiens with 6 samples.

Results

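The E2F, RB, MYBL2 and FOXM1 regulators are 10 genes of the transcription program that takes a cell through its division cycle: E2F1, E2F2, E2F7, E2F8, RB1, RBL1, RBL2, MYBL2, FOXM1 and LIN9. They were chosen by name, as the rows of the processed RNA-seq table that carry exactly these symbols, out of 26822 symbols in all. Each of the 10 had 1 row that carried no other symbol. The cells were MCF10A, a widely used non-tumorigenic line of human breast epithelium. They were transfected with non-targeting siRNA (siNT, 3 samples) or with siRNAs against the transcription factor PAX9 (siPAX9, 3 samples) at 30 nM and harvested 72 hours later. The 2 groups shared the line, the medium and the transfection and differed in the siRNA. The table gives 1 FPKM (read fragments relative to transcript length and to the size of the library) per gene and group, which is the authors' combined value for the 3 samples. No value per sample was available, so no error between samples can be given and no difference below was tested. Whether a difference exceeds the spread between samples was not judged here, since the authors' own comparison was not used. Read depth per gene is unknown. Throughout, a change is log2 of FPKM in siPAX9 over FPKM in siNT, and lower or higher without a fold gives the direction of the 2 values only, however small the difference. Genes that differed by 2-fold or more are counted separately, also by size alone.

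E2F proteins are transcription factors that switch on the genes of DNA replication as cells leave G1. E2F1 and E2F2 activate, whereas E2F7 and E2F8 are atypical E2Fs that repress and bind DNA without a DP partner. The pocket proteins RB (RB1), p107 (RBL1) and p130 (RBL2) hold E2Fs in check until cyclin-dependent kinases phosphorylate them. LIN9 belongs to the MuvB core, which joins p107 or p130 in the repressive DREAM complex and later joins B-MYB (MYBL2) and FOXM1 to drive the genes of G2 and mitosis. Several of these regulators, among them E2F1, RBL1 and MYBL2, are known E2F targets themselves.

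PAX9, the targeted gene, stood at 2.80 FPKM in siNT cells and at 0.325 FPKM in siPAX9 cells, a ratio of 0.116. Its row runs on chromosome 14 from 37126773 to 37642998 and carries no other symbol. Overlaps of this row with other genes were not examined. Among the 13492 genes with at least 1 FPKM in the higher group and a value above 0 in both, the median change was -0.07 on the log2 scale. The 8 epithelial markers used to check the label were all above 1 FPKM and summed to 3573 FPKM in siNT and 4258 FPKM in siPAX9 cells. Among them, CDH1 was over 2-fold higher, EPCAM was over 2-fold lower and KRT5 was at 1558 and 1807 FPKM. Both luminal hormone receptor genes were under 1 FPKM in each group. Of 4 fibroblast markers, COL3A1 was listed at 0. The summed level of the list was 6.38 FPKM in siNT and 42.1 FPKM in siPAX9, most of it DCN (5.85 and 37.9 FPKM). DCN and COL1A1 (0.454 and 4.13 FPKM) were both over 2-fold higher in siPAX9 cells. The 3 immune markers summed to 3.40 and 3.86 FPKM, with CD3E at 0 in both groups and CD68 the only marker above 1 FPKM. The 3 endothelial markers summed to 2.58 and 0.516 FPKM, nearly all of it PECAM1. The part of these marker shifts in the results below was not tested.

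The regulators with appreciable mRNA were lower in siPAX9 cells. Of the 10 genes, 8 had at least 1 FPKM, and each of these 8 passed that limit in both groups. All 8 were lower in siPAX9 cells, where 54.9% of the 13492 genes were lower by any amount. FOXM1, MYBL2 and RBL1 were lower by 2-fold or more, which is 37.5% of the 8 genes, while 6.89% of all genes were as much lower. None of the 8 was 2-fold higher, against 7.26% of all genes. E2F2 and E2F8 were under 1 FPKM in both groups and were the only members with a higher value in siPAX9 cells. The median change was -0.72 for the 8 genes and -0.67 for all 10. RBL1 was the member just past the 2-fold limit and E2F7 the next one short of it.

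**Figure D1:**
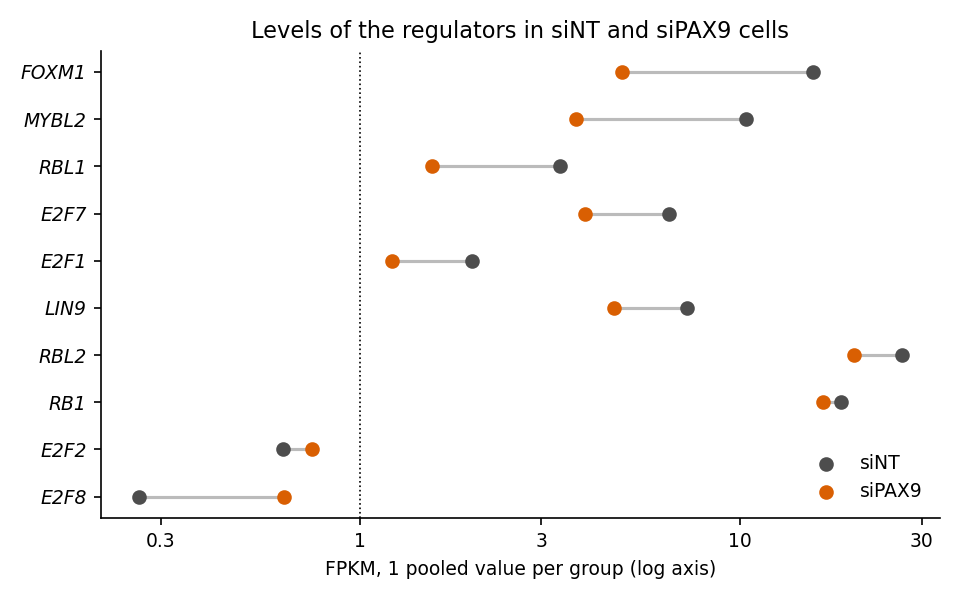
FPKM of the 10 regulators in siNT cells (gray) and siPAX9 cells (orange) on a log axis, 1 combined value per group without an error bar, ordered from the most lowered (FOXM1) at the top. The dotted line marks 1 FPKM. FOXM1, MYBL2 and RBL1 show the widest gaps to the left, and E2F2 and E2F8 lie left of the line with siPAX9 to the right of siNT.

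Promoter sequences were examined because genes of the cell cycle commonly carry short regulatory elements close to the transcription start. The RefSeq table of promoter windows (GRCh38.p14, 250 bases before to 50 bases after the start) held windows for E2F1, E2F2, E2F7, RB1, RBL1, RBL2, MYBL2 and LIN9. The start behind the RB1 window lay 172699 bases inside the gene, and that window was left out, which leaves 7 genes. Searched on both strands were the E2F sites TTTCCCGC, TTTGGCGC, TTTCGCGC and TTTGCCGC, the cell cycle genes homology region (CHR, TTTGAA or TTCGAA, the last of which reads the same on both strands), the CCAAT box (CCAAT), a forkhead element (GTAAACA) and MYB elements (TAACGG or TAACTG). The looser E2F core GGCGGGA was added after the windows had been seen, and it overlaps TTTCCCGC where a C follows that site. E2F1, E2F2 and RBL1 are shown for their E2F sites, E2F7 for its CCAAT boxes, and MYBL2 and LIN9 for the E2F core. Each line gives the last 150 bases before the start, 5′ to 3′ along the gene, with E2F sites, E2F cores, CHRs and CCAAT boxes of either strand in capitals where the whole element lies before the start. The stretches are chr20:33686386-33686535 (minus strand), chr1:23531234-23531383 (minus), chr12:77065570-77065719 (minus), chr20:37095998-37096147 (minus), chr20:43666964-43667113 (plus) and, for the innermost of the 3 LIN9 starts, chr1:226309165-226309314 (minus).
E2F1: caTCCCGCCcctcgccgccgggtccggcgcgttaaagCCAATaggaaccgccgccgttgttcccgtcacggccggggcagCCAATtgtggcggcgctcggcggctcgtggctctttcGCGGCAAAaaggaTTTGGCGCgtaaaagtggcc
E2F2: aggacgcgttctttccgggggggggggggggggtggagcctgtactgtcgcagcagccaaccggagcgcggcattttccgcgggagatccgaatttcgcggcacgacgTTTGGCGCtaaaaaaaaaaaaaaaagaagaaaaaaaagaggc
E2F7: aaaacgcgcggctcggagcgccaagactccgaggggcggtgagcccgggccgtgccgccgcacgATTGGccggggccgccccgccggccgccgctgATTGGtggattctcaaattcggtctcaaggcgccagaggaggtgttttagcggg
RBL1: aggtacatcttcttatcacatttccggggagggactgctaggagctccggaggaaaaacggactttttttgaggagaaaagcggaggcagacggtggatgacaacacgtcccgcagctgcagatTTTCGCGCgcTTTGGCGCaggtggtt
MYBL2: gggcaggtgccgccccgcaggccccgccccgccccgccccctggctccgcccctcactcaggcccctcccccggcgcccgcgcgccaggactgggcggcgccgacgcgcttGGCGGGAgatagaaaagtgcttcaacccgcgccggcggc
LIN9: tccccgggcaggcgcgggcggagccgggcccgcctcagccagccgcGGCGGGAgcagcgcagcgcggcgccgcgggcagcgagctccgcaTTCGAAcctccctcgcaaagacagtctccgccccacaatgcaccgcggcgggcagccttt

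E2F1 held 2 E2F sites, at bases -33 to -26 (on the opposite strand) and -20 to -13 from the start. RBL1 also held a pair, at -26 to -19 and -16 to -9, separated by 2 bases. E2F2 held a single E2F site at -42 to -35. These 3 genes therefore share an E2F site within the last 42 bases before the start, and 3.31% of all 35116 windows in the table held such a site anywhere. MYBL2 held none of the 4 E2F sites and 1 E2F core at -39 to -33, an element found in 15.4% of all windows. LIN9 held 2 cores and a CHR at -60 to -55, and a second CHR spans its innermost start. E2F7 held 4 CCAAT boxes, all on the opposite strand, and E2F1 held 3, where 34.6% of all windows held at least 1. RBL2 had only a CHR, at 24 to 29 bases after the start (16.4% of all windows held a CHR). No forkhead or MYB element was found in the 7 genes, and 3.42% and 11.2% of all windows held them. With 7 of 10 members searched (70.0%), a count over the members as a set is void, so these are descriptions of single promoters.

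**Figure D2:**
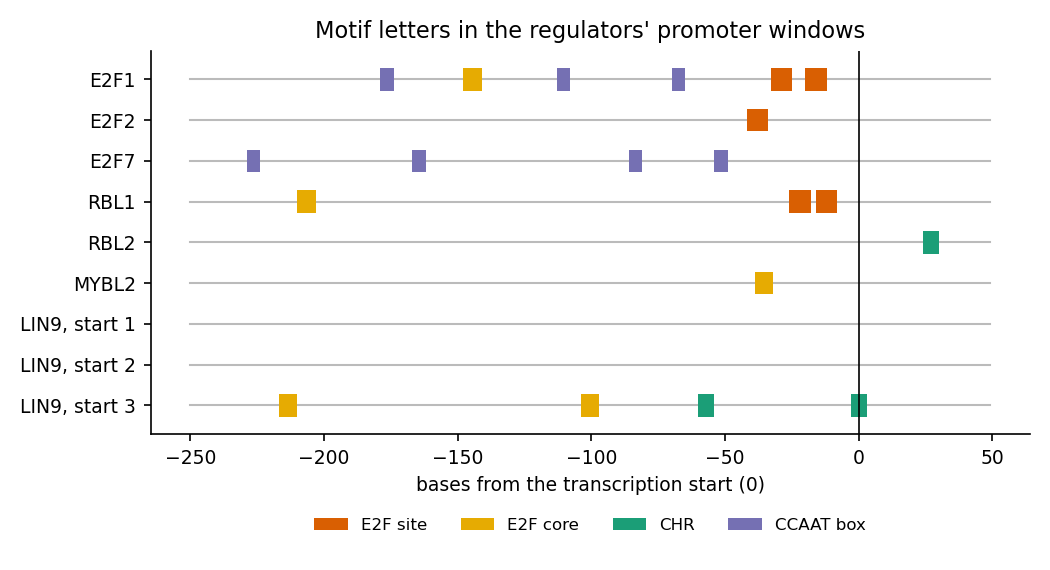
Motif letters in the 300-base RefSeq promoter windows of 7 regulators, with LIN9 drawn for its 3 starts. The horizontal axis is the distance in bases from the transcription start, and colored blocks mark E2F sites, E2F cores, CHRs and CCAAT boxes on either strand. The E2F sites of E2F1, E2F2 and RBL1 all lie within 42 bases before the start.

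FOXM1, a forkhead factor that drives genes of G2 and mitosis, showed the largest fold difference of the members. It stood at 15.5 FPKM in siNT cells and at 4.88 FPKM in siPAX9 cells, a change of -1.67 or 3.18-fold lower. Only 2.07% of the 13492 genes were lowered as much or more. The FOXM1 row runs on chromosome 12 from 2945982 to 2998691 (hg19), wider than the gene itself (2966846 to 2986340, minus strand). It covers RHNO1, which is read from the opposite strand and shares 917 bases with FOXM1, and whose own row was at 15.8 and 7.08 FPKM, a change of -1.16. Whether the counting used strand is not given in the sources used here, so reads from the shared stretch cannot be assigned. ITFG2, which shares 2112 bases with FOXM1 at the other end, was nearly level at 4.91 and 4.52 FPKM.

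MYBL2 encodes B-MYB, the partner that converts MuvB from a repressor to an activator. Its row (chromosome 20, 42295659 to 42345136) stood at 10.3 FPKM in siNT cells and at 3.71 FPKM in siPAX9 cells, 2.79-fold lower, with a change of -1.48. No other protein-coding gene of the annotation overlapped it. MYBL1, which encodes A-MYB, is a relative of MYBL2 and was also lower, at 1.68 and 0.519 FPKM (-1.70 on the log2 scale). MYBL2 made up 86.0% of the summed FPKM of these relatives in siNT cells and 87.7% in siPAX9 cells, so the balance between them was nearly the same in both groups.

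LIN9, the MuvB subunit among the members, differed less than its activating partners. It was at 7.26 FPKM in siNT cells and 4.66 FPKM in siPAX9 cells (chromosome 1, 226418850 to 226497449), a change of -0.64. The level of MYBL2 relative to LIN9 was 1.42 in siNT cells and 0.796 in siPAX9 cells, and that of FOXM1 relative to LIN9 was 2.14 and 1.05. Both activators were thus more abundant than LIN9 mRNA in siNT cells, whereas in siPAX9 cells MYBL2 was the less abundant and FOXM1 about equal. Of the other MuvB genes, LIN37 was level at 2.73 and 2.71 FPKM. LIN52 was at 4.014 and 2.77 FPKM, LIN54 at 3.22 and 2.54 FPKM and RBBP4, a histone-binding subunit shared with other complexes, at 21.0 and 17.3 FPKM. LIN9 was the most lowered of the 5 MuvB genes, and none of the 5 reached 2-fold.

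The 3 pocket protein genes differed from each other both in level and in change. RBL1 (chromosome 20, 35624755 to 35724618) was at 3.35 FPKM in siNT cells and at 1.55 FPKM in siPAX9 cells, 2.17-fold lower. Its change of -1.11 became -0.77 when 1 was added to each FPKM, short of 2-fold. RBL2 (chromosome 16, 53468332 to 53537216) was at 26.5 and 19.9 FPKM, a change of -0.42. RB1 (chromosome 13, 48877883 to 49056026) was at 18.4 and 16.5 FPKM, and its change of -0.15 lay near the middle of all genes, 42.8% of which were lowered as much or more. The order of levels was therefore RBL2, RB1 and RBL1 in both groups. RBL1 made up 6.93% of the summed pocket protein FPKM in siNT cells and 4.07% in siPAX9 cells, while the share of RB1 was 38.1% and 43.6%. The promoter of RBL1 holds the pair of E2F sites shown above, and that of RBL2 held none of the E2F letters searched. The window of RB1 was left out, and a link between E2F sites and changes was not tested. The rows of RB1 and RBL2 overlap genes read from the opposite strand, LPAR6 within RB1 (5.02 and 5.38 FPKM) and AKTIP at the end of RBL2 (4.85 and 6.61 FPKM), and neither was lower in siPAX9 cells.

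Of the 4 E2F members, E2F1 and E2F7 were lower in siPAX9 cells, and E2F2 and E2F8, both under 1 FPKM, had higher values there. E2F7, an atypical repressor (chromosome 12, 77415026 to 77459360), was the most abundant of the 4, at 6.49 FPKM in siNT cells and 3.91 FPKM in siPAX9 cells. E2F1, an activator (chromosome 20, 32263292 to 32274210), was at 1.97 and 1.22 FPKM. Their changes were close to each other, -0.73 for E2F7 and -0.70 for E2F1, so that the ratio of E2F7 to E2F1 was 3.29 in siNT and 3.21 in siPAX9 cells. E2F2, the other activator (chromosome 1, 23832920 to 23857712), was at 0.629 FPKM in siNT cells and 0.750 FPKM in siPAX9 cells, a change of 0.25. E2F8, the other atypical repressor (chromosome 11, 19245610 to 19263202), was at 0.263 and 0.631 FPKM. Its change of 1.26 was 0.37 with 1 added to each FPKM, and at this level a difference of 0.368 FPKM cannot be judged without the reads behind it. The 2 lower genes were thus an activator and a repressor. E2F7 and E2F8 together stood at 2.59 times the summed FPKM of E2F1 and E2F2 in siNT cells and at 2.31 times in siPAX9 cells. This order rests on leaving out E2F3, the abundant activator that is no member, since with E2F3 among the activators the ratio was 0.556 and 0.2997.

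**Figure D3:**
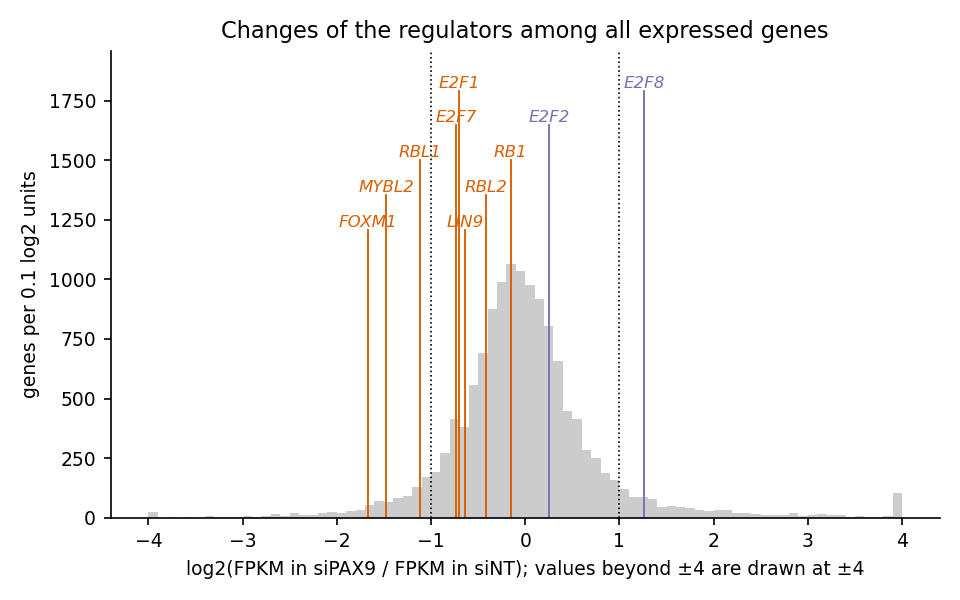
Histogram of the log2 change in siPAX9 cells for 13492 genes with at least 1 FPKM in the higher group, in bins of 0.1, with the regulators marked by lines (orange, at least 1 FPKM; purple, under 1 FPKM). Dotted lines mark 2-fold. The 8 orange lines lie left of 0 and the 3 of FOXM1, MYBL2 and RBL1 left of the lower limit.

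Set beside the rest of their family, each E2F member had a lower FPKM than E2F3 in both groups. The list of partners, which holds the other E2F genes, the DP genes TFDP1 and TFDP2, the other MuvB genes, MYBL1 and the DREAM kinase gene DYRK1A, had 12 genes with at least 1 FPKM. Of these, 2 were 2-fold lower (MYBL1 and E2F5) and none was 2-fold higher, with a median change of -0.29. Over all genes, 6.89% were 2-fold lower and 7.26% 2-fold higher. With 1 added to each FPKM the count of 2-fold lower partners was 0, and after centring or with at least 1 FPKM in both groups it was 1. E2F3, the third activator, was higher in siPAX9 cells, at 9.54 and 13.2 FPKM, opposite in direction to E2F1, and the ratio of E2F3 to E2F1 was 4.83 in siNT and 10.8 in siPAX9 cells. E2F5, a repressor that works with p130, was at 7.27 and 3.49 FPKM. E2F4, the main E2F of DREAM, was the most abundant at 50.9 and 41.1 FPKM, but its row also carries ELMO3. E2F6, a repressor that does not bind pocket proteins, was at 4.90 and 4.56 FPKM. Without E2F4, E2F3 made up 30.7% of the summed E2F FPKM in siNT cells and 47.5% in siPAX9 cells, and E2F7 20.9% and 14.1%. TFDP1, the main DP gene, was at 71.3 and 61.7 FPKM, and TFDP2 at 8.63 and 4.74 FPKM. DYRK1A was at 17.5 and 21.0 FPKM.

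**Figure D4:**
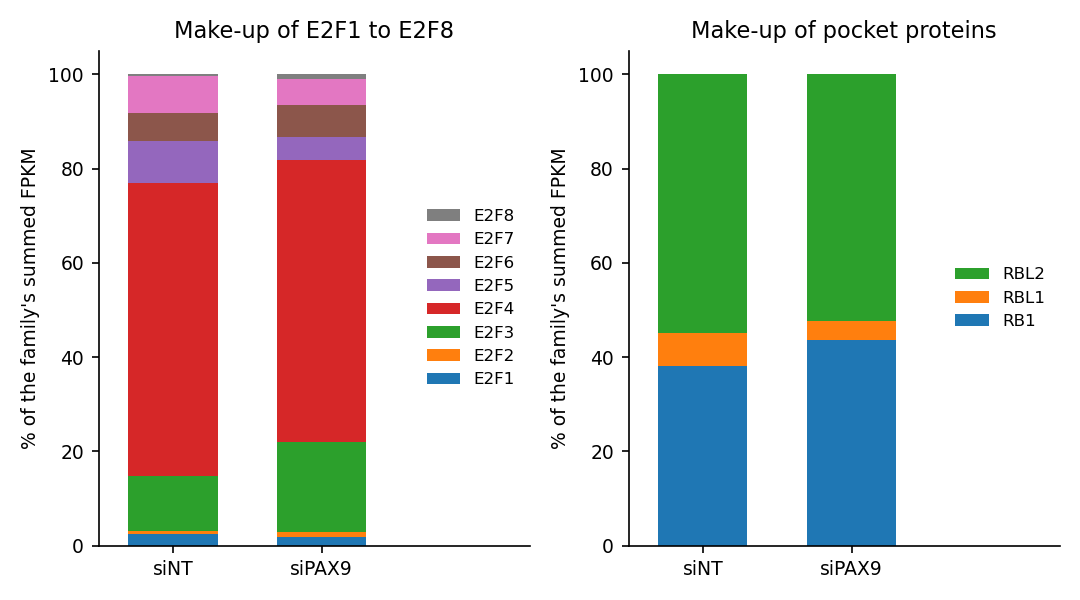
Share of the summed FPKM taken by each of E2F1 to E2F8 (left) and by each pocket protein gene (right), in siNT and siPAX9 cells, as stacked bars from 0 to 100%, with 1 combined value per group. E2F4, whose row also carries ELMO3, takes 62.1% and 59.8%, the share of E2F3 is 11.6% and 19.1%, and that of RBL1 is 6.93% and 4.07%.

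Most genes listed as known targets of these regulators had lower values in siPAX9 cells, 42 of 45 in the G1/S list and 40 of 40 in the G2/M list. Of all genes, 54.9% were lower by any amount. Fewer of the listed genes passed 2-fold. The list of 45 known E2F targets of G1/S had a median change of -0.99. In it, 21 genes were lower by 2-fold or more (against 6.89% of all genes) and none was 2-fold higher (against 7.26%). With 1 added to each FPKM, 13 were 2-fold lower, against 4.54% of all genes on that scale. With at least 1 FPKM required in both groups, 18 were, against 5.84%. CDT1, a replication licensing factor, was the most lowered at 10.8 and 1.95 FPKM in siNT and siPAX9 cells. PRIM1, which encodes the small primase subunit, was at 6.93 and 1.67 FPKM, and MCM2 of the replicative helicase at 16.7 and 5.67 FPKM. The 3 genes that were not lower were picked out after their values were seen. They were CCNE1 (4.31 and 5.15 FPKM) and CCNE2 (1.21 and 1.51 FPKM), which encode the E cyclins, and POLE2 (1.501 and 1.606 FPKM), a subunit of a replicative polymerase.

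A list of 40 targets of B-MYB and FOXM1 in G2 and mitosis had a median change of -1.71, with 36 genes lower by 2-fold or more, where 6.89% of all genes were 2-fold lower and 54.9% lower by any amount. CDC25C, the phosphatase that activates CDK1, had the lowest ratio at 5.14 and 0.955 FPKM, so it passed the 1 FPKM limit in siNT cells only. With the limit required in both groups, 35 genes were 2-fold lower and TOP2A led the list. TOP2A, which encodes the topoisomerase that untangles chromosomes, was at 39.3 and 7.37 FPKM, and NUF2 of the kinetochore at 9.08 and 1.71 FPKM. The change of FOXM1 was -1.67 and that of MYBL2 -1.48 on the same scale. The 4 genes short of 2-fold, singled out after their values were seen, were CKAP2, RACGAP1, ECT2 and BUB1B, the last nearly level at 12.4 and 12.2 FPKM, in a row that also carries PAK6. In bulk RNA, fewer cells in a phase of the cycle and less mRNA per cell cannot be told apart, and this holds for the regulators as for their targets.

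**Figure D5:**
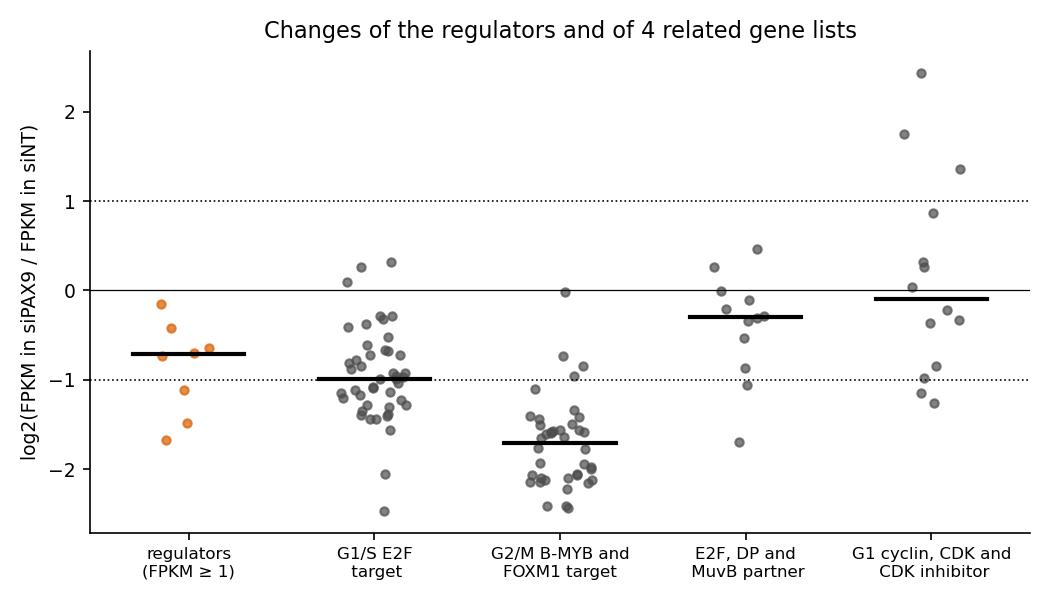
Change in siPAX9 cells (log2 scale) of each gene with at least 1 FPKM, as points, for the 8 such regulators (orange) and 4 related gene lists (gray), with the median as a black bar and 2-fold as dotted lines. The medians are -0.72 for the regulators, -0.99 for the G1/S list, -1.71 for the G2/M list, -0.29 for the partners and -0.09 for the G1 list. CCNE1 and CCNE2 are drawn in both the G1/S and the G1 list.

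The elements seen in the regulators' promoters were also counted in the target lists, which were drawn up as known targets of these factors, so their E2F sites and CHRs restate that choice. A gene was counted when any of its windows held the element. Promoter windows were found for 38 of the 45 G1/S genes and 34 of the 40 G2/M genes. An E2F site was present in 20 of the 38 G1/S genes (52.6%) and in 3 of the 34 G2/M genes (8.82%). A CHR was present in 5 of the 38 (13.2%) and in 25 of the 34 (73.5%), and a CCAAT box in 24 (63.2%) and 28 (82.4%). Of the 27305 genes with a window, 3.99% held an E2F site, 19.5% a CHR and 39.7% a CCAAT box. Within the lists, genes with and without an element differed little in their median change, and not always in the same direction. In the G1/S list it was -0.96 for the 20 genes with an E2F site and -1.10 for the 18 without, and with and without a CHR it was -1.09 and -0.99. In the G2/M list it was -1.66 for 25 genes with a CHR and -1.76 for 9 without. For the CCAAT box it was -1.04 with and -0.96 without in the G1/S list, and -1.72 and -1.58 in the G2/M list. Of the background genes, 75.6% had a window, so a comparison of changes by element across all genes is void and is not given.

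Upstream of the pocket proteins lie the G1 cyclins, their kinases and the kinase inhibitors, and these differed in both directions. Of 16 genes, 14 had at least 1 FPKM, with 2 of them 2-fold lower, 3 at least 2-fold higher and a median change of -0.09. Over all genes the shares were 6.89% and 7.26%, and with 1 added to each FPKM 1 gene of the list was 2-fold lower. The 3 higher genes all encode kinase inhibitors. CDKN1A, which encodes p21, was at 69.0 FPKM in siNT cells and 373 FPKM in siPAX9 cells, a change of 2.44. CDKN1C, which encodes p57, was at 4.76 and 15.95 FPKM, and CDKN2D of the INK4 family at 1.06 and 2.71 FPKM. CDKN2D fell short of 2-fold with 1 added to each FPKM. Another INK4 gene, CDKN2C, was lower, at 4.87 and 2.04 FPKM. CDKN1B, which encodes p27, was at 30.7 and 23.9 FPKM. CDKN2A and CDKN2B were listed at 0 in both groups, and MCF10A cells are known to lack that region. Among the kinases that phosphorylate the pocket proteins, CDK6 was at 13.97 and 6.33 FPKM, CDK4 at 51.1 and 25.9 FPKM and CDK2 at 14.3 and 11.4 FPKM. For the D cyclins, CCND1 was at 28.1 and 51.1 FPKM, CCND2 at 22.0 and 22.6 FPKM and CCND3 at 69.9 and 59.8 FPKM. The E cyclin genes CCNE1 and CCNE2, given above, belong to this list and also to the G1/S list. SKP2, which marks p27 for degradation, was at 20.9 and 11.6 FPKM.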

How the data were processed

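RNA-seq was carried out on MCF10A cells with siNT (3 samples) or siPAX9 (3 samples). Per the labels and the methods, the authors made poly(A)+ libraries, sequenced them single-end, mapped the reads to hg19 with Bowtie2 and ran Cufflinks in Partek Flow. The deposited FPKM is 1 value per row and group, combined by the authors; the scaling between libraries is not given in the sources used here. The table has 41656 rows and no values per sample. Its fold change, test statistic, p-value, q-value and significance columns hold the authors' own comparison and were not used. A status word marks rows with enough reads to be tested, and all 10 members carried it.

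For each symbol the row with the highest mean FPKM was kept. The background was every symbol that reached 1 FPKM in at least 1 group and was above 0 in both. Another 130 symbols with at least 1 FPKM were listed at 0 in one group and have no log2 change. The 2-fold limit is the size threshold of the study's methods. Members, lists and motifs were chosen with earlier results of these data known. All members were named. Of each list, the 3 most lowered genes past 2-fold were named, and every gene of the partner and G1 lists could be.

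Row positions were set to count from 1. hg19 positions were compared with GENCODE 44 on GRCh37, which shares hg19 coordinates, and promoter windows come from RefSeq on GRCh38.p14, by symbol. Windows over 1000 bases from a member's annotated 5′ end were left out, a limit set after the windows were seen. Of the 13492 background genes, 10200 had a window, directly or through an older symbol. Calculations were tested on simulated data. Python 3.11.15, numpy 2.4.6, pandas 2.3.3 and matplotlib 3.10.9 were used.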

Additional observations from a re-analysis of the deposited data

How the results depend on the processing

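All 8 members with at least 1 FPKM were lower in siPAX9 cells under each setting in which direction was counted. With 1 added to each FPKM the median change of the members was -0.58, the count of 2-fold lower genes was 13 in the G1/S list, 0 among the partners and 1 in the G1 list, and 2 members remained past 2-fold, without RBL1, where 4.54% of all genes were 2-fold lower. Centring on the median gave a members' median of -0.65 and 1 partner gene. Without the filter, the members' median was -0.67 and 1 member, E2F8, was 2-fold higher, as were 13.7% of all 18462 genes then counted. Requiring 1 FPKM in both groups left 1 partner gene, 18 G1/S genes and 35 G2/M genes 2-fold lower, against 5.84% of all genes. At 1.5-fold, 6 members, 36 G1/S genes and 4 G1 genes were lower, against 16.8% of the 13492 genes. At 4-fold, 0 members, 2 G1/S genes, 14 G2/M genes, 0 partners and 0 G1 genes were, against 1.37% of all genes. With E2F3 added to E2F1 and E2F2, the ratio of E2F7 and E2F8 to the activators was 0.556 in siNT and 0.2997 in siPAX9 cells. Adding the E2F core to the E2F letters, an alternative chosen after seeing the data, added MYBL2 and LIN9 to the 3 members with a match, which makes 5, and raised the share of all genes with a match in any window from 3.99% to 20.1%, so that nothing is read from the count. Summing rows or keeping rows with a single symbol left the counts as they were, and the octamer GGCGGGAA or a window ending at the start left 3 members with a site. No paired analysis was possible because the table holds 1 combined value per group, and for the same reason no sample could be left out. The precision of low values, E2F2 and E2F8 above all, is unknown without the reads behind each value.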
